A study of Rattus norvegicus with 6 samples.

Results

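Matrix metalloproteinases (Mmp genes), the Adam, Adamts and Adamtsl genes and the tissue inhibitors of metalloproteinases (Timp genes) were examined in rat heart muscle 6 h after a coronary artery was tied. Members were the array probes whose RefSeq accession maps to a symbol that begins with Mmp, Timp, Adam, Adamts or Adamtsl and goes on with a number. This took 50 genes, with 1 probe each, of 13876 named genes on the array, where the gene table used for naming holds 82 such symbols. They were 20 Mmp, 4 Timp, 15 Adam, 8 Adamts and 3 Adamtsl genes. The study used male Wistar rats whose age is not given in the sources used here. In 3 of them the left anterior descending artery was ligated, and after 6 hours staining with both TTC and EB showed where the infarct's border zone lay (arrays M17, M24 and M25). The 3 sham-operated rats gave arrays C4, C5 and C6, sampled at the same time. Each array measured total RNA of one tissue piece with a single dye, so fewer cells of a type and less RNA per cell cannot be told apart.

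Most of these proteins are secreted or cell-surface zinc proteases. The Mmp enzymes are made as inactive precursors and together cleave most proteins of the extracellular matrix, Adam enzymes release the outer parts of membrane proteins, and Adamts enzymes cut proteoglycans and other matrix proteins. Timp proteins bind the active site of these enzymes and block it, while Adamtsl proteins resemble the Adamts enzymes but lack the protease domain. In the infarcted heart this system is known for clearing matrix while leukocytes enter, and for shaping the later scar.

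Signals are given as log2 values after subtracting each array's 75th percentile, so 0 is the 75th percentile of that array and levels of different probes are not compared. A gene was called changed where limma's test, with Benjamini-Hochberg adjustment over all 17930 tested probes, gave an adjusted p below 0.05. Probes were tested if they were well above background, by the scanner software's own flag, on all 3 arrays of at least one group. On arrays C5 and C6 only 51.0% and 52.4% of probes were well above background, against 73.7% to 78.3% on the other 4. On these 2 arrays the lowest signal well above background was -4.49 and -3.98, against -7.41 to -6.98 on the other 4, so dim probes can read higher there. All 15 measured markers of central neurons and all 12 of glia were higher on C5 and C6 than on the other 4. Of these, 9 neuron markers and all 12 glial markers were well above background on both, as was 1 of the 5 testis markers that were likewise higher there, of 9 measured. Arrays M17, M24, M25 and C4 came from one scan and C5 and C6 from one each, so a fit with the scan as a block sets the border zone against C4 alone. M25 may not be an animal of its own, since for 97.6% of the 572 tested probes that differ over 2-fold between M17 and M24 its value lies between theirs, as it does for 28 of the 34 tested members. Cardiomyocyte markers were well above background on all 6 arrays, and none of the 10 was called.

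Of the 50 genes, 34 were tested, which is 68.0% against 79.3% of all named genes. Signal stood well above background on all 6 arrays in 22 of these, 12 entered through the border zone alone and 0 through sham alone. Mmp8 and Mmp9 are among the 12, so the group where they are high let them into the test. Of the 16 not tested, Adam2, Adam5, Adam6, Adam23, Adam34, Mmp1, Mmp20 and Mmp27 were above background on no array, and Adam3a, Adam30, Mmp3, Mmp10, Mmp13, Mmp19, Mmp21 and Mmp28 on 1 to 3. In the tested genes 5 rose in the border zone (Timp1, Adamts1, Adamts9, Mmp8 and Mmp9) and 6 fell (Mmp11, Mmp15, Mmp16, Adam19, Adamts7 and Adamtsl4), while 23 did not pass. Among all 11001 tested genes 21.8% were called, 9.9% higher and 11.9% lower. The members' median difference was 0.08 on the log2 scale, against -0.05 for all tested genes, and their median absolute difference was 0.51 against 0.37. The values of the 3 border zone arrays did not overlap those of the 3 sham arrays for 16 of 34 members, or 47.1%, against 46.8% of all tested genes. With the scan as a block 10 members were called, 5 higher and 5 lower, where 17.2% of all genes were (8.79% higher and 8.44% lower), and 9 of them are among the 11 above. Without M25 only Timp1 and Adamts1 were called higher and Mmp15 and Mmp11 lower, where the share of all genes called was 3.67% (2.1% higher and 1.57% lower).

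**Figure D1:**
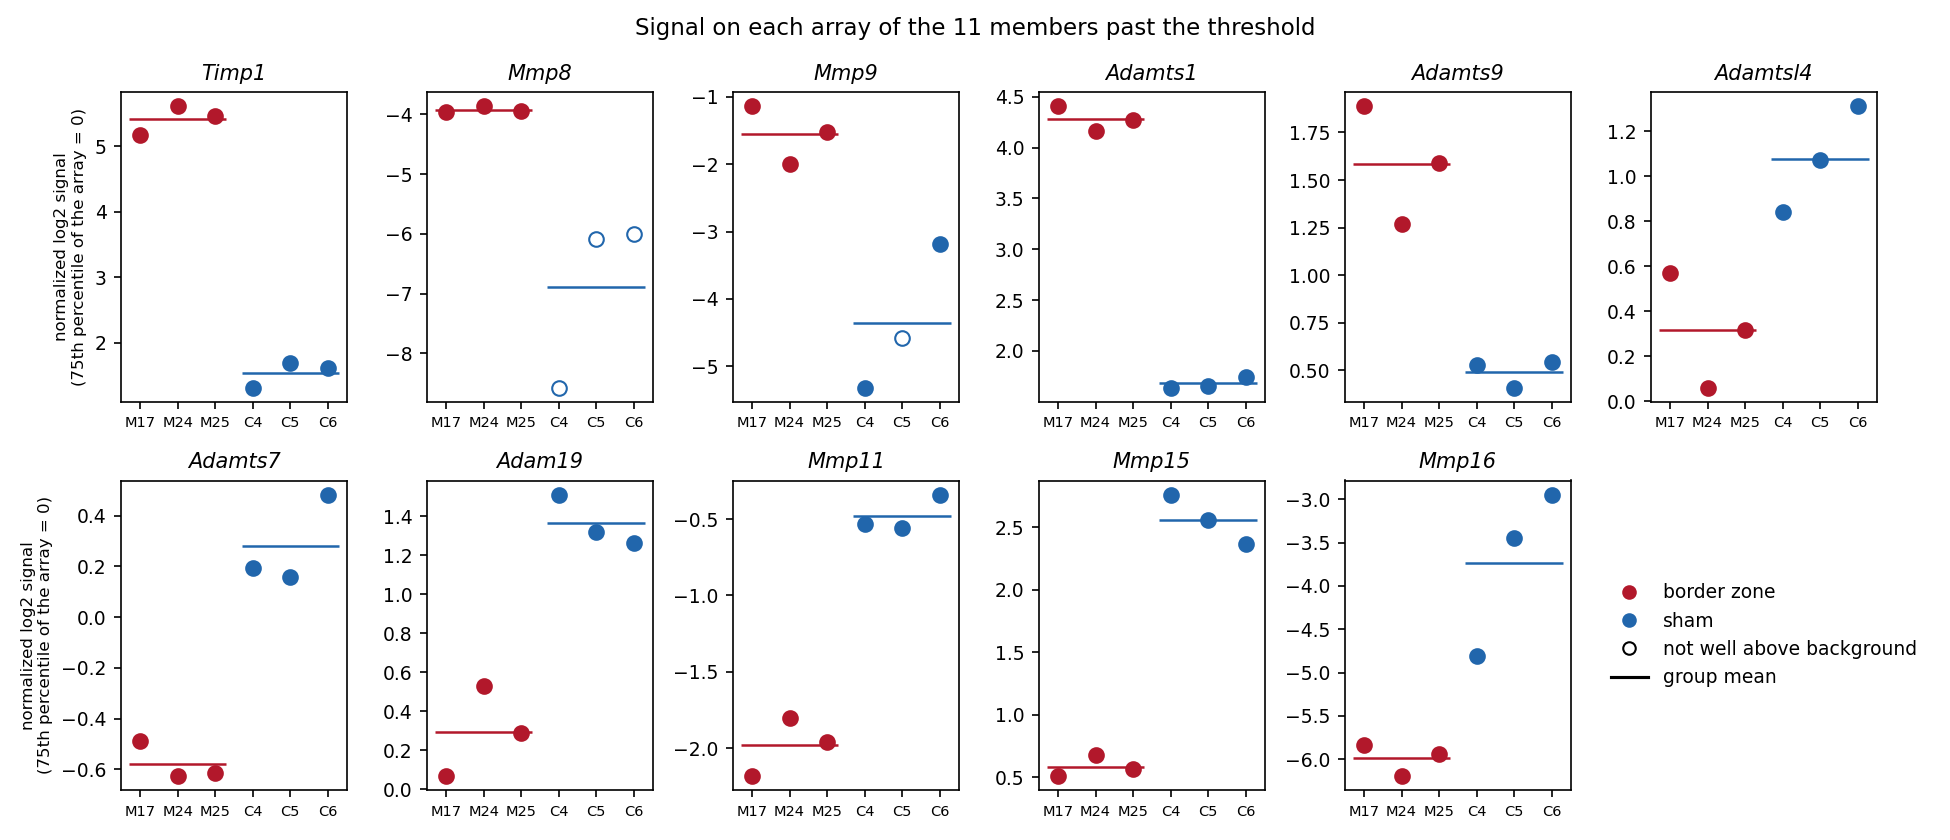
Normalized log2 signal (0 is the 75th percentile of the array) on each of the 6 arrays for the 11 genes past the threshold; colours mark border zone and sham, lines the group means, and open points mark arrays where the probe was not well above background. Timp1 runs from 5.17 to 5.61 in the border zone and from 1.32 to 1.69 in sham, while Mmp8 has no sham array above background.

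**Figure D2:**
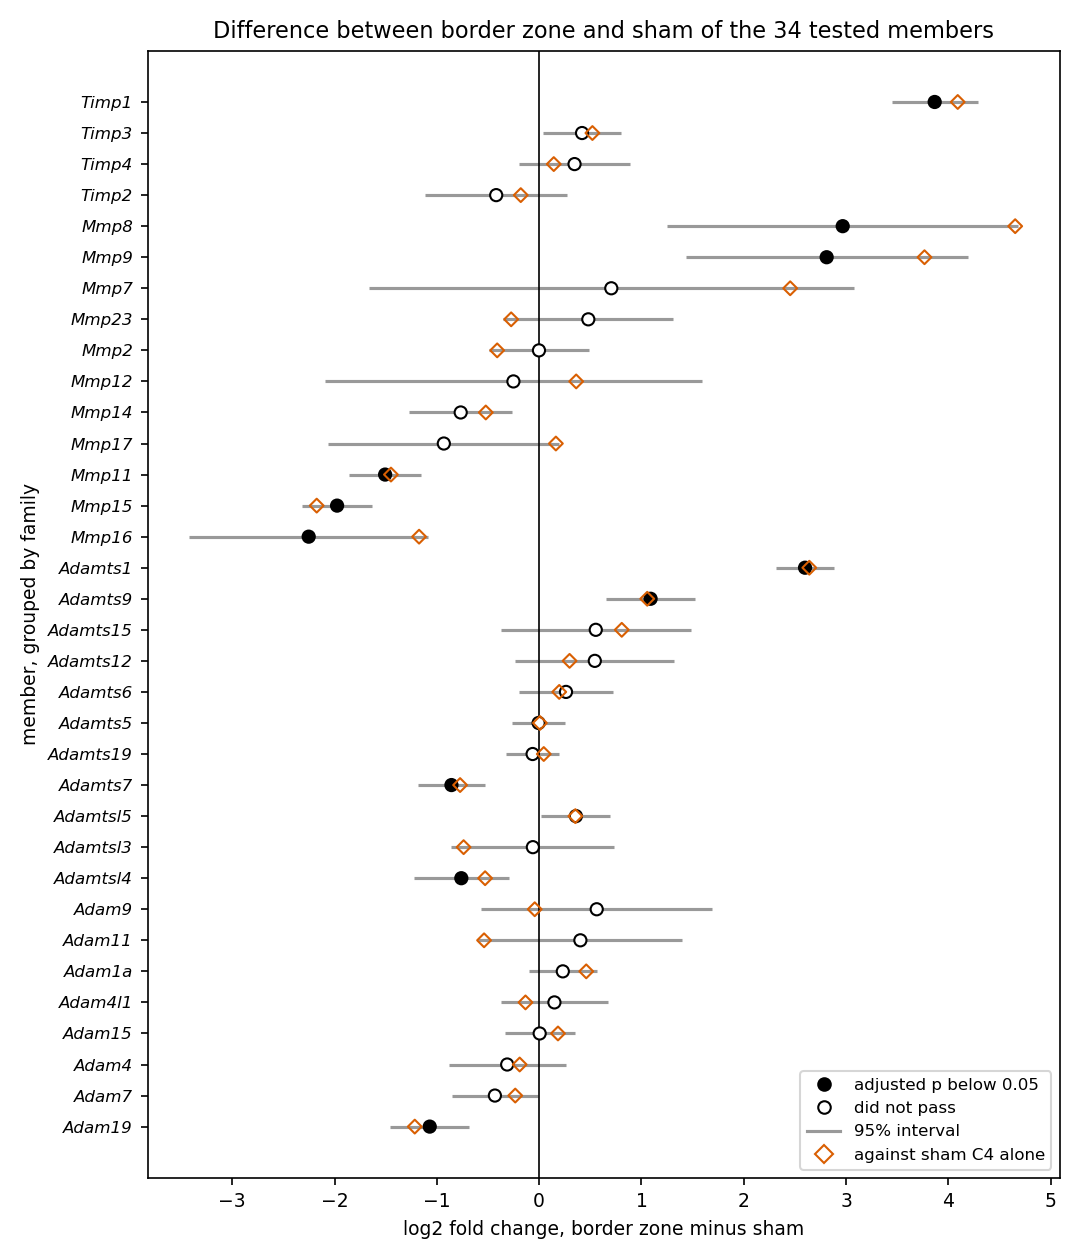
Difference in log2 signal, border zone minus sham, for the 34 tested genes, grouped by family, with the 95% interval of the limma fit (3 arrays a group). Timp1 lies farthest to the right at 3.87 and Mmp16 farthest to the left at -2.25, and the median absolute difference is 0.51.

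The start regions of Timp1, Adamts1, Mmp15 and Mmp11 are shown first, because these 4 kept their calls under the most alternative settings. Sequences are RefSeq promoters of the GRCr8 build, which held 33 of the 50 genes, and 250 bases before each gene's start were searched. The windows below run from -150 to -21 relative to the start, 5′ to 3′ on the gene's strand, and capitals mark the GC box GGGCGG on either strand and, in Timp1, TGAGTAA, a variant of the AP-1 site. GGGCGG is in 30.5% of all 33469 promoters and in 13 of the 33 members, and TGAGTAA in 2.38% of all and in 2 of the 33. Timp1 and Adamts1 rose, and Mmp15 and Mmp11 fell. Each of the 4 holds at least 1 GC box, as do the called Adamts9, Adam19 and Adamtsl4 and the uncalled Adam15, Timp2, Timp3, Mmp23 and Adamtsl3. The called Adamts7 and Mmp8, whose start region is shown with its neighbours further on, hold none, and Mmp9 and Mmp16 were not matched.
Timp1, chrX:3771143-3771272, minus strand: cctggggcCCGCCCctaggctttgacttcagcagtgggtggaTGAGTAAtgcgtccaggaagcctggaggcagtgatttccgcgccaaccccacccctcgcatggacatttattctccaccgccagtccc
Adamts1, chr11:38427405-38427534, minus strand: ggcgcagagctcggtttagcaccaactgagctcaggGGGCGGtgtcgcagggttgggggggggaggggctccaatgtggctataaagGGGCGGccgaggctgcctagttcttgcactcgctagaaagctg
Mmp15, chr19:9691021-9691150, minus strand: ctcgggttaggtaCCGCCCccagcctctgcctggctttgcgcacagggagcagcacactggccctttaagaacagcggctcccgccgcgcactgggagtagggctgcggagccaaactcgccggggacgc
Mmp11, chr20:12730134-12730263, plus strand: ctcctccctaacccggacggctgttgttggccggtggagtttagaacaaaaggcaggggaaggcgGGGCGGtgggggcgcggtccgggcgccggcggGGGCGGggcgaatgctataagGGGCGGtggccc

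The inhibitors came out unevenly: Timp1 rose with the largest difference of any tested member over all arrays, and none of the other 3 passed. Timp1, a secreted inhibitor of most Mmp enzymes that inflammatory cytokines are known to induce, was at 5.17, 5.61 and 5.45 on M17, M24 and M25 and at 1.32, 1.69 and 1.62 on C4, C5 and C6. All border zone arrays lie far above all sham arrays, with means of 5.41 ± 0.22 (SD, n = 3 arrays) and 1.54 ± 0.20 (SD, n = 3 arrays). The difference was 3.87 ± 0.17 (SE) on the log2 scale, with a 95% interval of 3.45 to 4.29, or 14.6-fold (limma, adjusted p = 0.000649). Timp1 was called under all 15 alternative settings, with adjusted p from 0.000181 to 0.0346, and against C4 alone it was 17-fold higher.

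Timp3, which stays bound to the matrix and also blocks Adam and Adamts enzymes, was at 4.37, 4.82 and 4.61 in the border zone and at 4.08, 4.31 and 4.15 in sham. Its groups did not overlap, with every border zone array the higher, but the difference of 0.42 ± 0.16 (SE) did not pass (limma, adjusted p = 0.111). Timp4, the inhibitor best known for its abundance in the heart, was at 1.94, 1.38 and 1.62 against 1.5, 1.46 and 0.94, and the groups overlapped. Its difference was 0.35 ± 0.22 (SE; limma, adjusted p = 0.306). Timp2, which helps to activate Mmp2 on the cell surface besides inhibiting it, was at -4.98, -4.65 and -4.85 against -4.64, -3.79 and -4.78, with C6 not above background, and differed by -0.42 ± 0.28 (SE; limma, adjusted p = 0.331). Timp1, Timp3 and Timp4 lie within the synapsin genes Syn1, Syn3 and Syn2, which serve synaptic vesicles. On the log2 scale the mean of C5 and C6 minus C4 was 1.57 for Syn1 and 0.34 for Timp1, -1.60 for Syn3 and 0.15 for Timp3, and 3.57 for Syn2 and -0.30 for Timp4. Syn3 was not above background on C5 and C6, nor Syn1 on C5, so their values take in readings under background.

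The 3 collagenases measured differ in how far they could be read. Mmp8, the collagenase stored in neutrophil granules, was at -3.95, -3.86 and -3.95 on the border zone arrays and at -8.57, -6.08 and -6.01 on the sham arrays, none of which was above background. The 3 border zone arrays nearly coincide, and the spread lies on the sham side. Mmp8 was at least 2.35-fold higher in the border zone, where the dim sham values are raised to each array's lowest signal well above background (measured means -3.92 and -6.89, limma, adjusted p = 0.0365). Against C4, whose background is lower, it was at least 8.34-fold higher (limma, adjusted p = 0.00353). The call was lost without M17, M24, M25 or C5 (adjusted p = 0.106, 0.118, 0.131 and 0.0636), without the filter on dim probes (0.0710), and with normexp background correction, where the difference was 0.08 (0.874). The collagenase Mmp13 was above background only on M24 and M25, and Mmp1 on no array, so neither was tested.

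Of the gelatinases, which cut denatured collagen and basement membrane collagen, Mmp9 rose and Mmp2 did not pass. Mmp9, which neutrophils also carry in granules, was at -1.14, -2.0 and -1.53 in the border zone and at -5.32, -4.59 and -3.18 in sham, with C5 not above background. All border zone arrays lie above all sham arrays, and C6 is the sham array nearest to them. The measured difference was 2.81 ± 0.56 (SE; limma, adjusted p = 0.0238), which takes in the reading of C5 under background. Mmp9 was at least 6.86-fold higher with that reading raised, and 13.6-fold higher against C4. Its call was lost without M17, M24, M25 or C5 (limma, adjusted p = 0.0832, 0.0668, 0.105 and 0.0797), without the filter (0.0516), and with normexp, where the difference was 1.23 (0.0965). Mmp2, the gelatinase that fibroblasts make at rest, was at 2.98, 2.96 and 2.94 against 3.37, 2.85 and 2.66. The border zone arrays lie inside the range of the sham arrays, and the difference of -0.0018 ± 0.20 (SE) has a 95% interval of -0.49 to 0.49 (limma, adjusted p = 0.996). Against C4 alone, the highest of the sham arrays, the difference was -0.41.

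Neutrophil markers moved with Mmp8 and Mmp9. Of 11 measured, 9 were tested and 8 were called higher. Their summed signal, with the array's 75th percentile as 1, was 5.81 to 6.69 in the border zone and 0.452 to 0.607 in sham, and Pglyrp1 and Itgam exceeded background on each border zone array but on no sham array. Ltf was above background on M25 alone and Fpr1 on M24 alone, and neither was tested. S100a8, an abundant neutrophil protein, alone holds the largest part of the border zone sums, so the sums mainly follow this gene. It was at 1.92, 2.09 and 1.96 against -4.12, -3.18 and -2.35, a difference of 5.21 ± 0.43 (SE) on the log2 scale. Summed macrophage markers were 85.2 to 90.4 against 45.1 to 52.4, with 6 of 14 tested called higher and 2 lower, and Cd163 above background on no array. Lyz2 alone holds the largest part of the border zone sums, at log2 values of 5.65, 5.56 and 5.61 against 4.27, 3.81 and 3.64. The 2 called lower were Adgre1 (-0.77) and Cx3cr1 (-1.34), so the sum does not describe the list as a whole. The part of either cell type in the Mmp values was not tested.

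Of the 4 genes grouped here as membrane-type, Mmp14, Mmp15, Mmp16 and Mmp17, 2 fell and none rose, with a median difference of -1.45 over all arrays. The group is not every Mmp gene whose protein sits in the membrane, and Mmp23, which differed by 0.48 and did not pass, was left out of it. Against C4 alone the differences were -0.52 for Mmp14, -2.17 for Mmp15, -1.17 for Mmp16 and 0.16 for Mmp17. Mmp15, a transmembrane enzyme that can activate Mmp2, was at 0.51, 0.68 and 0.56 in the border zone and at 2.76, 2.56 and 2.36 in sham. All 3 border zone arrays lie well below all sham arrays. It fell by 1.98 ± 0.14 (SE) on the log2 scale, or 3.93-fold (limma, adjusted p = 0.00157), and by 2.17 against C4 (adjusted p = 0.00930). Mmp15 kept its call under 14 of 15 alternative settings, the exception being the fit without M25 and with the scan as a block (adjusted p = 0.0633).

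Mmp16, another transmembrane enzyme, was at -5.83, -6.19 and -5.93 against -4.81, -3.44 and -2.95. Here the sham arrays differ among themselves, with C5 and C6 on average 1.62 above C4. Mmp16 was 4.77-fold lower over all arrays (limma, adjusted p = 0.0277) but 2.26-fold lower against C4 (adjusted p = 0.0320). The call was lost without M17, M24, M25, C5 or C6 (limma, adjusted p = 0.0810, 0.0999, 0.111, 0.0893 and 0.0516), without the filter (0.0578) and with normexp (0.0696). Mmp17, which is anchored to the membrane by a lipid, was at -2.22, -2.13 and -2.22 against -2.35, -0.70 and -0.72. It was 0.16 above C4 in the border zone and far below C5 and C6, and did not pass over all arrays (-0.93 ± 0.46 SE, limma, adjusted p = 0.204), although it was called without C4 (-1.48, 0.000828). Mmp14, the main surface activator of Mmp2, was at -0.55, 0.08 and -0.21 against 0.30, 0.63 and 0.70, with every border zone array the lower. It just missed the threshold at -0.77 ± 0.21 (SE; limma, adjusted p = 0.0509), and against C4 alone the difference was smaller, at -0.52. Mmp14 was called without C4 (limma, adjusted p = 0.0258) and among probes above background on all 6 arrays (0.0267).

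Summed central neuron markers were 0.307 to 0.336 in the border zone, 0.503 on C4, 5.15 on C5 and 5.5 on C6. Nefl and Stmn2 were above background on C5 and C6 alone, while Gad2, Syt1, Slc17a7 and Gria2 were above background on no array. Summed glial markers were 3.56 to 3.88 in the border zone, 5.75 on C4, 15.3 on C5 and 18.9 on C6. Mmp16 and Mmp17 are high on the same 2 sham arrays, and the part of these cell types in their values was not tested.

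**Figure D3:**
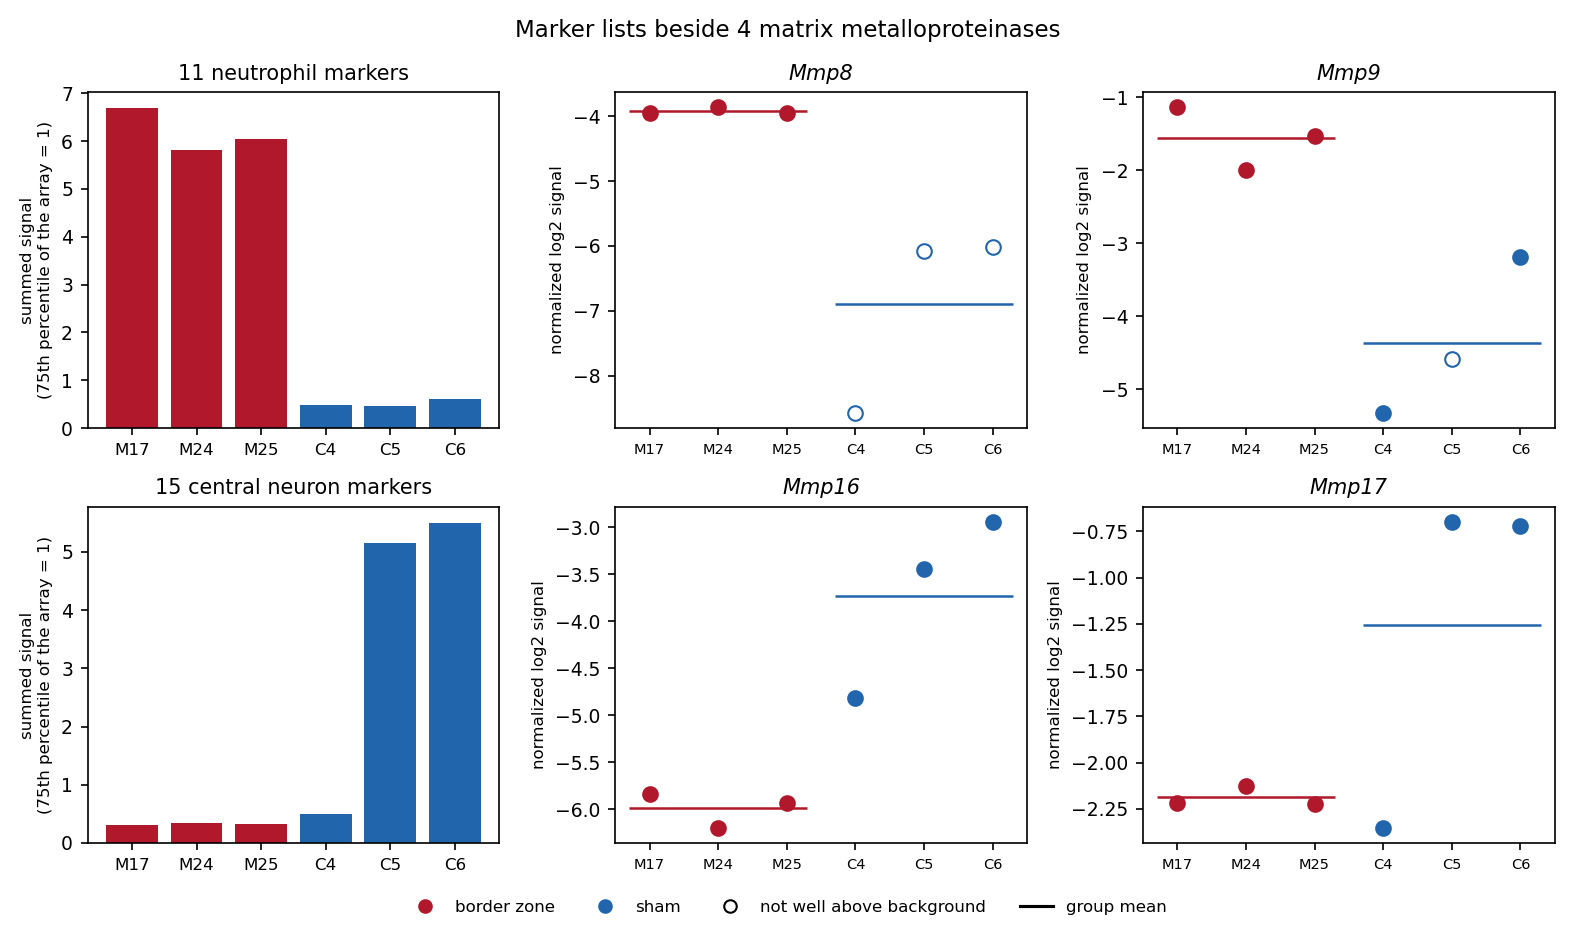
Upper row, the summed signal of 11 neutrophil markers on each array (bars, 75th percentile of the array as 1) beside the log2 signals of Mmp8 and Mmp9; lower row, the same for 15 central neuron markers beside Mmp16 and Mmp17. The neutrophil sum is 5.81 to 6.69 on the border zone arrays, where S100a8 holds its largest part, and at most 0.607 in sham. The neuron sum is above 5 on C5 and C6 alone.

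Among the stromelysins, matrilysin and macrophage elastase, only Mmp11 was called, and it fell. Mmp11, a stromelysin that furin-like enzymes activate before it is secreted, was at -2.18, -1.80 and -1.96 in the border zone and at -0.53, -0.56 and -0.34 in sham. The groups lie well apart, and the 3 sham arrays are close to each other. It fell by 1.51 ± 0.14 (SE) on the log2 scale, or 2.84-fold (limma, adjusted p = 0.00327), and kept its call under 14 of 15 alternative settings, all but the fit without M25 and with the scan as a block (adjusted p = 0.110). Mmp12, the macrophage elastase, spread from -6.26 to -3.45 in sham alone, and its difference of -0.25 ± 0.75 (SE) was within that spread (limma, adjusted p = 0.830). Mmp7, the matrilysin, exceeded background on each border zone array and on no sham array, yet C6 had the highest value of all. It did not pass (limma, adjusted p = 0.628). The stromelysins Mmp3 and Mmp10 were above background on M17 alone and on M24 alone, and were not tested. Mmp23, put in none of the classes used here, differed by 0.48 ± 0.34 (SE; limma, adjusted p = 0.348) and was called only without C4 (0.86, 0.0108).

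Many of these Mmp genes are neighbours. In GRCr8 a run of 10 on chromosome 8 holds Mmp13, Mmp12, Mmp1b, Mmp3, Mmp1, Mmp10, Mmp8, Mmp27, Mmp20 and Mmp7 in this order, and all but Mmp1b were measured. Of the 9, 3 were tested (Mmp12, Mmp8 and Mmp7), only Mmp8 was called, and Mmp1, Mmp27 and Mmp20 were above background on no array. The windows shown run from -100 to -21 on the gene's strand, and capitals mark the AP-1 site TGANTCA (its own reverse complement) and the TATA sequence TATAAA, sought on the gene's strand only.
Mmp13, chr8:12782729-12782808, plus strand: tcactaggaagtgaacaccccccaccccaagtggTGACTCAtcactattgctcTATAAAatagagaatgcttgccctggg
Mmp12, chr8:12866552-12866631, plus strand: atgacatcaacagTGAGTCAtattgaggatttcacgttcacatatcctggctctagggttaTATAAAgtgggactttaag
Mmp3, chr8:12925181-12925260, plus strand: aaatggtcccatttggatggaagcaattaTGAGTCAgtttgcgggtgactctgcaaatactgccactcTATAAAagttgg
Mmp1, chr8:12943353-12943432, plus strand: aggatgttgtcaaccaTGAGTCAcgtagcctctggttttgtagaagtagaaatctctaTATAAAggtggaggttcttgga
Mmp10, chr8:12974607-12974686, plus strand: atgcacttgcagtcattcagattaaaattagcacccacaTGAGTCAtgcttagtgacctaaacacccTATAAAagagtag
Mmp8, chr8:13008790-13008869, plus strand: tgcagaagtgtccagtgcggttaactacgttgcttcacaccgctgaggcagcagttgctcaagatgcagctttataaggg
Mmp27, chr8:13030652-13030731, plus strand: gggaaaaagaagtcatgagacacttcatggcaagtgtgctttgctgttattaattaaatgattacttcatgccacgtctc
Mmp20, chr8:13074179-13074258, plus strand: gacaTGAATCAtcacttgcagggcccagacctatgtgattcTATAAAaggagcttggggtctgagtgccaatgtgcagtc
Mmp7, chr8:13132943-13133022, plus strand: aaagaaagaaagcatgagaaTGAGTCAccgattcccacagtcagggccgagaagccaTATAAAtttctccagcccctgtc
Both sequences are in 7 of the 9 promoters, between -96 and -61 for the AP-1 site and between -59 and -32 for TATAAA. Mmp8 and Mmp27 hold neither. In all 33469 promoters 6.34% hold TGANTCA and 8.06% hold TATAAA in 250 bases, against 8 and 11 of the 33 members, and outside the run only Adam19 has TGANTCA. Of the tested genes in the run, Mmp12 and Mmp7 hold the AP-1 site and neither was called. A match describes these letters and shows no binding.

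**Figure D4:**
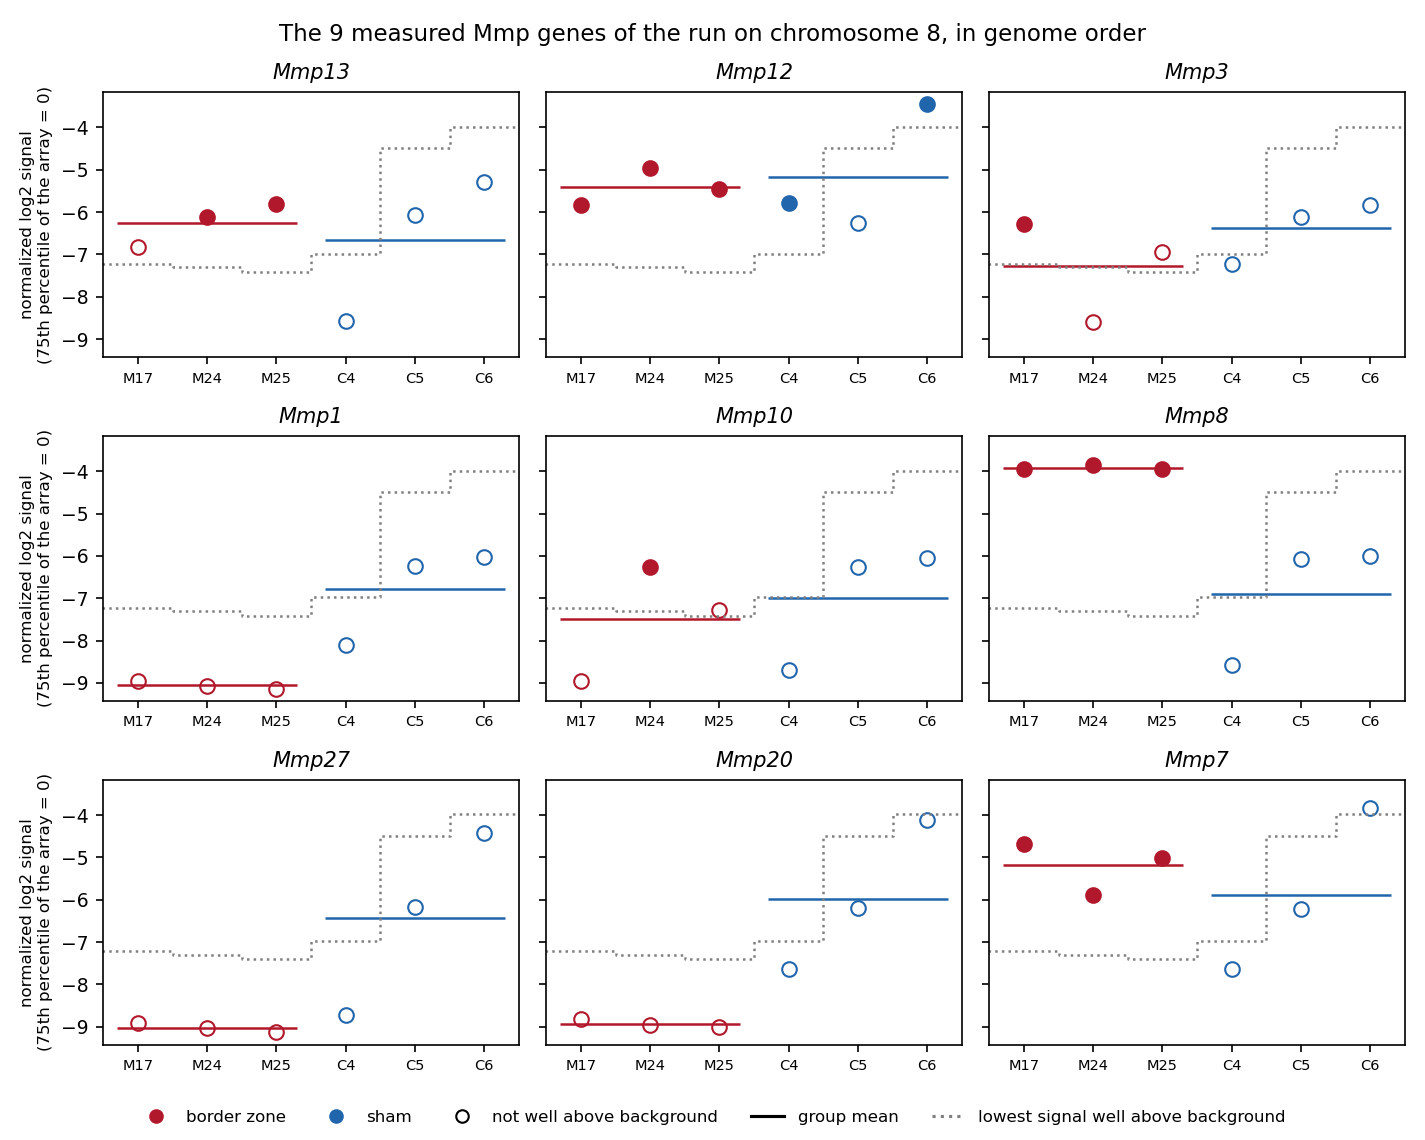
Normalized log2 signal on the 6 arrays for the 9 measured Mmp genes of the run on chromosome 8, in genome order, with a dotted line at each array's lowest signal well above background, solid lines at the group means and open points where the probe was not well above background. Mmp8 stands near -3.9 on the border zone arrays, while most other values lie near or under the dotted line, which is -4.49 on C5 and -3.98 on C6 against -7.41 to -6.98 on the other arrays.

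All 8 Adamts genes were tested, and the 2 that rose are both among the 4 that cleave proteoglycans such as versican. Adamts1, which cuts versican and aggrecan and is known to hold back vessel growth, was at 4.41, 4.16 and 4.27 in the border zone and at 1.64, 1.66 and 1.74 in sham. Both groups are tight and lie far apart. It rose by 2.60 ± 0.12 (SE), with a 95% interval of 2.31 to 2.88, or 6.06-fold (limma, adjusted p = 0.000649). It kept its call under 14 of 15 alternative settings, all but the fit without M25 and with the scan as a block (adjusted p = 0.0513).

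Adamts9, another enzyme that cleaves versican, was at 1.89, 1.27 and 1.59 against 0.53, 0.41 and 0.55, with no overlap. It rose by 1.09 ± 0.18 (SE), or 2.13-fold (limma, adjusted p = 0.0139). The call was lost with the scan as a block (1.06, adjusted p = 0.0749), without M25 (0.0845) and without C5 (0.0533). Adamts5, a main aggrecanase and the genomic neighbour of Adamts1 on chromosome 11, was at -1.93, -1.75 and -1.83 against -1.85, -1.80 and -1.85. The groups overlap fully, and the difference of -0.0052 ± 0.11 (SE) has a 95% interval of -0.27 to 0.26 (limma, adjusted p = 0.977). Adamts15 was spread from -0.45 to 0.92 in the border zone and did not pass (0.55 ± 0.38 SE, adjusted p = 0.336).

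Of the other 4 Adamts genes 1 fell. Adamts7, which cleaves cartilage oligomeric matrix protein, was at -0.49, -0.63 and -0.62 against 0.19, 0.16 and 0.48. All border zone arrays lie below all sham arrays, and the fall was 0.86 ± 0.13 (SE), or 1.81-fold (limma, adjusted p = 0.0118). The call was lost without M24 (adjusted p = 0.0566) and without M25 (0.0879). Adamts12, Adamts6 and Adamts19 differed by 0.54, 0.26 and -0.06, and did not pass. Adamts4 of the fixed naming list was not analysed here.

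Of the 3 Adamtsl genes 1 was called. Adamtsl4, which binds fibrillin fibres, was at 0.57, 0.06 and 0.31 against 0.84, 1.07 and 1.31. The highest border zone array is close to the lowest sham array, and the fall of 0.76 ± 0.19 (SE), or 1.69-fold, was close to the threshold (limma, adjusted p = 0.0425). It kept the call under 5 of 15 alternative settings, and lost it without M17, M24, M25, C5 or C6 (adjusted p = 0.0640, 0.131, 0.161, 0.111 and 0.0904). Adamtsl3 and Adamtsl5 differed by -0.06 and 0.36, and did not pass.

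Of the 15 Adam genes 8 were tested and 1 was called. Adam19, which can shed neuregulins and is needed for heart development, was at 0.07, 0.53 and 0.29 against 1.51, 1.32 and 1.27. The groups lie apart, and it fell by 1.07 ± 0.16 (SE), or 2.10-fold (limma, adjusted p = 0.0105). The call was lost without M25 (adjusted p = 0.0738). Adam15, an adhesion protein and protease of vessels, was at 3.07, 2.81 and 2.88 against 2.73, 2.97 and 3.04. The groups overlap, and the difference of 0.0051 ± 0.14 (SE) has a 95% interval of -0.34 to 0.35 (limma, adjusted p = 0.984). Adam9, a widely made sheddase, differed by 0.56 ± 0.46 (SE; adjusted p = 0.416).

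Adam11, a brain gene whose protein lacks protease activity, was at -5.16, -5.26 and -5.40 against -4.74, -6.27 and -6.03, with C5 and C6 not above background. It did not pass (0.40 ± 0.41 SE, limma, adjusted p = 0.507), was called without C4 (0.87, adjusted p = 0.00760), and was lower against C4 (-0.54, 0.0721). Its relative Adam23 was above background on no array. Of the 10 Adam genes known from testis or epididymis, 4 were tested and none was called over all arrays. Adam1a, a sperm protein gene, was called only against C4 (0.46, limma, adjusted p = 0.0482). Adam4, Adam4l1 and Adam7 differed by -0.31, 0.15 and -0.43. Adam8, Adam10, Adam12, Adam17 and Adam22 were not analysed here.

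**Figure D5:**
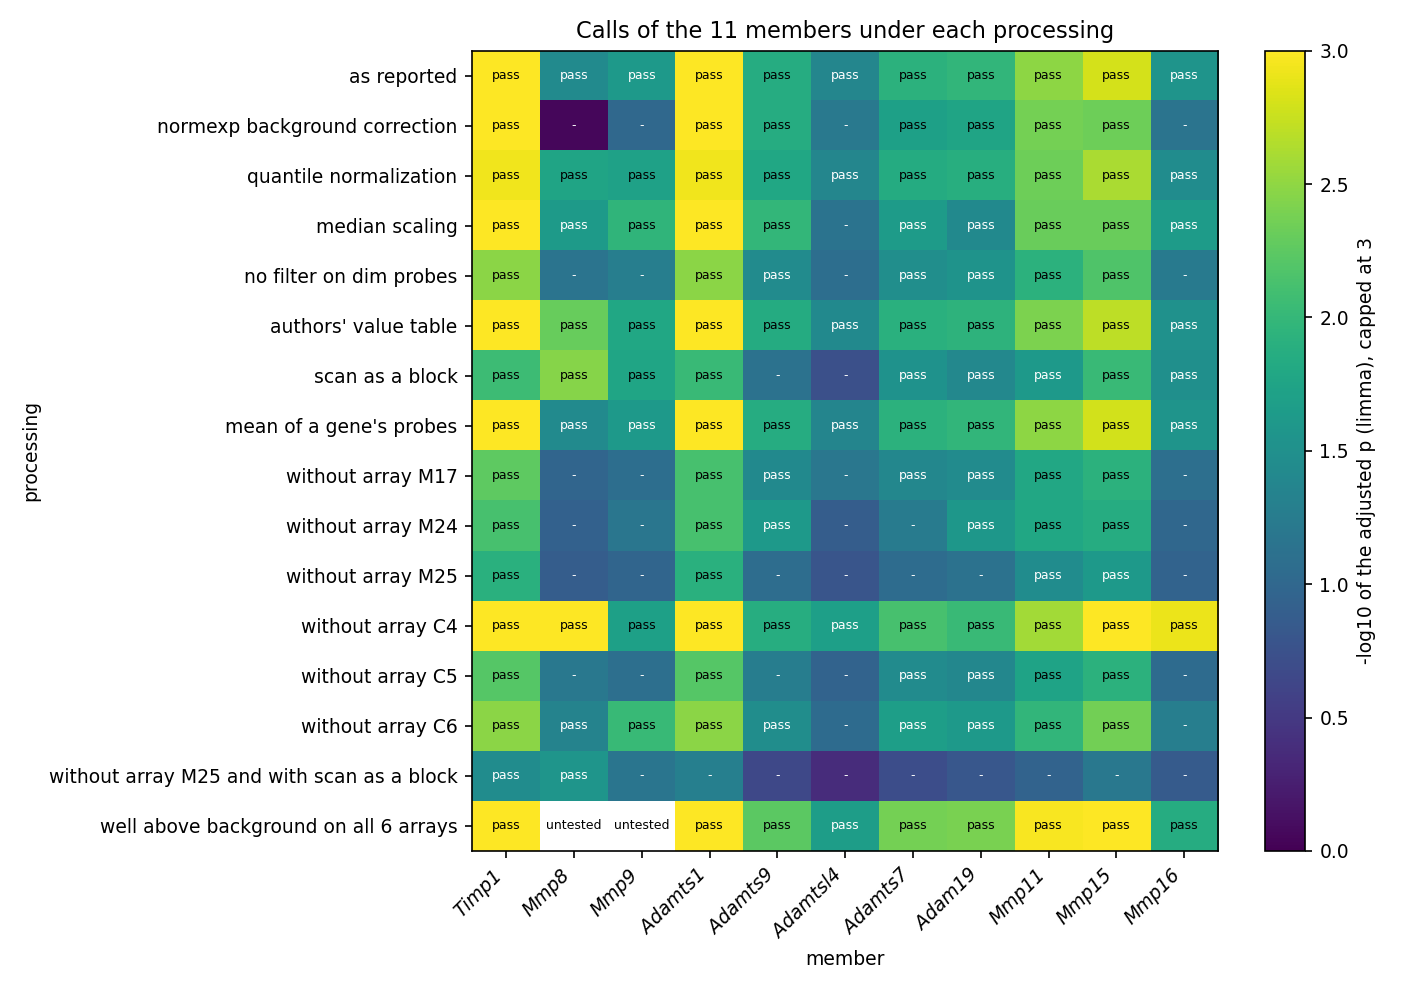
Calls of the 11 genes (columns) under the reported processing and the 15 alternatives (rows); colour is -log10 of limma's adjusted p, capped at 3, and "pass" marks an adjusted p below 0.05. Timp1 passes in every row, and Adamts1, Mmp15 and Mmp11 in all but the row without M25 and with the scan as a block.

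Genes that act with these proteases were counted from 4 lists, with 54 tested in all, of which 16 rose and 6 fell, where 9.9% of all tested genes were called higher and 11.9% lower. In plasmin activation, the protease cascade that can activate Mmp precursors, 3 of 7 tested genes rose and 1 fell, with a median difference of 0.93. Plaur, the urokinase receptor, was at 0.61, 1.0 and 0.81 against -1.89, -1.70 and -1.72, with the groups far apart. It rose by 2.57 ± 0.14 (SE; limma, adjusted p = 0.000958). Serpinb2, an inhibitor of urokinase, was above background on no sham array and at least 5.57-fold higher. Its measured difference was 4.32 ± 0.77 (SE; limma, adjusted p = 0.0175), a call lost without M17, M24 or M25 (0.0657, 0.0516 and 0.0854). With normexp its difference fell from 4.32 to 0.81 on the log2 scale (limma, adjusted p = 0.161). Plg, plasminogen itself, fell by 0.89 ± 0.19 (SE; limma, adjusted p = 0.0286) and kept its call under 5 of 15 alternatives, losing it without each of M17, M24, M25, C5 and C6 (0.0516 to 0.117).

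Of 14 tested regulators of metalloproteinases 2 rose and 1 fell, with a median of -0.08. Sdc4, a heparan sulfate proteoglycan of the cell surface, rose by 2.44 ± 0.20 (SE; limma, adjusted p = 0.00222). Rhbdf2 and Frmd8, partners of Adam17 on its way to the surface, differed by 0.52 and -0.51 (limma, adjusted p = 0.0382 and 0.0338), and each kept its call under 5 of 15 alternatives. Both lost it without M17, M24, M25, C5 or C6 (0.0676 to 0.179 for Rhbdf2 and 0.0707 to 0.170 for Frmd8). Of 23 tested genes whose proteins Adam enzymes are known to shed, 10 rose and 0 fell, with a median of 0.57. Procr, the endothelial protein C receptor, rose by 2.63 ± 0.30 (SE; limma, adjusted p = 0.00505), and Tnfrsf1a, a receptor of tumour necrosis factor, by 1.99 ± 0.21 (SE; adjusted p = 0.00446). Icam1, which leukocytes bind, rose by 1.98 ± 0.34 (SE; limma, adjusted p = 0.0157), a call lost without M25 (0.0841), without C5 (0.0568) and with the scan as a block (0.0993). Hbegf, Il6r, Tnfrsf1b, Cd44 and Cxcl16 were also among the 10. Areg, a ligand of the epidermal growth factor receptor, was above background on C4 alone in sham and at least 3.60-fold higher. Its measured difference was 2.93 ± 0.77 (SE; limma, adjusted p = 0.0477). Areg lost its call without M24, M25, C4, C5 or C6 (limma, adjusted p = 0.0677 to 0.167), without the filter (0.0864) and with the scan as a block. With normexp its difference fell from 2.93 to 0.66 (limma, adjusted p = 0.308).

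Of 10 tested genes on a list of matrix proteins linked to Adamts enzymes, 4 fell and 1 rose, with a median of -0.35. Whether the Adamts enzymes measured here cut these proteins was not tested. Eln, the elastin gene, fell by 2.20 ± 0.18 (SE) and Fbn1, fibrillin, by 1.46 ± 0.12 (SE; limma, adjusted p = 0.00228 for both). The fibrillar collagen genes Col3a1 and Col1a2 fell by 1.84 ± 0.31 (SE; limma, adjusted p = 0.0145) and by 1.02 ± 0.21 (SE; 0.0254). Col3a1 lost its call without M25 (limma, adjusted p = 0.0763) and with the scan as a block (0.0649). Col1a2 lost it without M24, M25 or C5 (limma, adjusted p = 0.0847, 0.120 and 0.0733), with the scan as a block (0.0552), with median scaling (0.0702) and without the filter (0.0560). Fn1, fibronectin, was the gene that rose, by 0.85 ± 0.11 (SE; limma, adjusted p = 0.00735), a call lost without M25 (0.0664). Summed fibroblast markers were 60.9 to 68.2 in the border zone and 79.6 to 101 in sham, with 2 of 8 tested higher and 2 lower. Col3a1 is itself one of these markers. Without it the sums were 49.6 to 52.7 in the border zone, 48.4 on C4, 40.7 on C5 and 38.3 on C6. Dcn holds the largest part of these sums, at log2 values of 5.23, 5.22 and 5.17 against 5.14, 4.74 and 4.55. Dcn did not pass (0.40 ± 0.17 SE, limma, adjusted p = 0.159) and was 0.06 above C4, so the sums give no clear direction. Summed endothelial markers were 14.5 to 18.1 against 22.9 to 24.2, with 1 of 6 higher and 2 lower. Their part in these values was not tested.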

How the data were processed

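Gene expression was measured on 6 one-colour Agilent arrays of 24684 probes. Per the file headers, the deposited spot intensity values come from Agilent Feature Extraction, which subtracts background and removes spatial trends without normalizing between arrays; the submitters' processing notes give version 11.0.1.1. Its flags mark spots above background and outliers. The authors' deposited value table holds log2 values, with medians of 5.54 (M17) and 5.53 (C6), a between-array normalization not given in the sources used here and no sign of gene centring; 24415 of its 24529 probes were matched, and it served as an alternative.

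From the intensities, log2 of the processed signal minus each array's 75th percentile was taken, without control and outlier spots, and spots of a probe were averaged, leaving 24614 probes. 14265 probes were named through RefSeq accessions, and a gene is read from its brightest probe. The arrays limit precision by their number, 3 a group. Tests used limma 3.58.1 in R 4.3.3, checked on simulated data. P-values measure the spread between these arrays. No spot was saturated (0), and at-least folds raise dim values to the array's lowest signal well above background.

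Named genes are the called members whose groups do not overlap, a list of 23 members, and up to 4 passing genes of each related list, some of which are not reported here; Mmp7, Mmp12, Mmp16, Mmp17, Mmp23 and other members were added for completeness after their values were seen. Members and lists were chosen with earlier results of these data known. Alternatives covered background correction (normexp on median signals, offset 50, since mean signals were not used here), scaling, filter, value table, probe choice, scan, and leaving out each array.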

Additional observations from a re-analysis of the deposited data

How the results depend on the processing

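No called member changed direction in 163 values under 15 alternatives, and 120 of those values kept the call. The count of members called higher (5 as reported) was 3 with normexp, 3 without the filter, 3 among probes above background on all 6 arrays, 2 without M25 and with the scan as a block, and 2 to 7 leaving out single arrays. The count called lower (6) was 2 to 8 leaving out single arrays and 0 without M25 and with the scan as a block in limma, where 6 had an unadjusted p below 0.05. Related genes called higher (16) were 1 in that last fit and 7 to 18 leaving out single arrays. Related genes called lower (6) were 3 with median scaling, 3 without the filter, 11 among probes above background on all 6 arrays, 3 with the scan as a block, 0 without M25 and with the block (5 at an unadjusted p below 0.05, limma), and 2 to 13 leaving out single arrays. Over all probes the median difference was -0.03 as reported, 0.16 with median scaling, -0.35 with normexp and -0.26 without the filter.

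Of the 23 tested members that were not called, 15 changed sign under at least 1 alternative, 9 of them with normexp and 8 with the scan as a block, and the cause was not tested. With the scan as a block these include Mmp17, Mmp12, Mmp23, Adam9, Adam4l1 and Adamts19. Of the genes of the naming list, 4 did so. Adam11 was at -0.40 with normexp, -0.54 with the scan as a block and -0.47 with the block and without M25. Adam15 was at -0.087 with quantile normalization and with the value table, and from -0.084 (without C4) to 0.067 (without C6) leaving out single arrays. Adamts5 was at 0.12 with quantile normalization and the value table, 0.18 with median scaling, 0.0074 with the block, 0.0033 with the block and without M25, and from -0.048 (without M24) to 0.042 (without M17) leaving out single arrays. Mmp2 was at 0.17 with normexp, 0.19 with median scaling, -0.41 with the scan as a block, and from -0.15 (without C6) to 0.20 (without C4) leaving out single arrays. The high background of C5 and C6 bounds what can be read of dim genes such as Mmp8. The fit with the scan as a block has 2 residual degrees of freedom, and no spread of sham animals enters it. No paired analysis was possible because the groups share no replicate number.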
